A study of Mus musculus with 37 samples.

Results

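The 10 genes described here encode AP-1 and immediate early transcription factors, most of which are switched on within minutes of a stimulus: the Fos proteins Fos, Fosb and Fosl2, the Jun proteins Jun, Junb and Jund, and the further early factors Egr1, Ier2, Atf3 and Nr4a1. They were listed by symbol, and all 10 were found by gene identifier among the 21975 genes of the deposited expression tables. The list was chosen by earlier results of these data, in which Fos was low in the ipsilateral cortex of PTE+ mice and mice had a like Fos level in both hemispheres. The same ipsilateral PTE+ libraries enter every comparison of PTE+ mice on that side. Of the 4 PTE+ mice with a contralateral library, 3 also gave an ipsilateral one. The comparisons of PTE+ with PTE- mice and with sham mice, also on mouse means, are therefore descriptions. So are the comparison of the PTE+ hemispheres and the likeness of the hemispheres. Counts of genes past the thresholds are printed for them beside those of the whole table, and nothing is read from these counts.

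Astrocytes were captured on magnetic beads that bind ACSA-2, an antigen on the astrocyte surface, from the cortex of male mice 4 months after a severe controlled cortical impact (CCI) to the right parietal cortex, or after sham surgery. The labels give all mice as wild type (WT CD31) and the study's methods call them CD1. The age of the animals was not given in the sources used here. Sham mice had the skull opened without impact, and every mouse carried recording electrodes. CCI mice with seizures on continuous recording are called PTE+ (post-traumatic epilepsy) and those without are called PTE-. The ipsilateral (injured side) libraries came from 5 sham, 10 PTE- and 4 PTE+ mice, and the contralateral libraries from 5 sham, 9 PTE- and 4 PTE+ mice. These 37 libraries came from 20 mice, of which 17 gave both hemispheres (5 sham, 9 PTE- and 3 PTE+). Levels are in TPM, a transcript abundance scaled for transcript length and library total, and the read depth behind them is unknown. Fewer cells that transcribe a gene and less RNA per cell cannot be told apart in such bulk samples.

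The ipsilateral library of PTE- mouse 9_14 stood apart: it had 10727 genes above 0, and the other 36 libraries had 15599 to 18534. 3 values of the list were listed at 0 in it, those of Fosb, Fosl2 and Atf3. Some results that rest on it are given with and without it, and the others include it. All 10 astrocyte markers examined were above 0 in every library, and their summed level was 15115.5 to 21526.2 TPM, against 116.28 to 739.68 TPM for 10 microglial markers, 76.3 to 783.68 TPM for 10 neuronal markers, 524.35 to 4480.64 TPM for 10 oligodendrocyte markers and 760.83 to 5104.96 TPM for 8 mural cell markers. The summed level of 8 endothelial markers was 346.96 to 2670.17 TPM. The defining markers Itgam (microglia), Rbfox3 (neurons) and Mbp (oligodendrocytes) had medians of 0.72, 18.97 and 1012 TPM, the last of which was well above 0.

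Fos and Jun proteins pair through leucine zippers to form AP-1, a dimer that binds DNA at AP-1 sites. A Fos protein needs a Jun partner, while Jun proteins can also pair among themselves or with ATF proteins such as Atf3. Fos, Egr1, Ier2 and Nr4a1 are held silent at rest and are induced by growth factors, calcium, depolarisation or stress through SRF and CREB, without new protein synthesis, whereas Jund is transcribed steadily in many cells. In the brain they are best known as marks of recent neuronal firing, and astrocytes induce them too. Enzymatic dissociation of tissue is also known to induce them. The cells here were released with papain before capture, and the dissociation time of each sample was not analysed here.

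The genes are given in the GRCm38 (mm10) assembly. Fos (ENSMUSG00000021250) lies at chr12:85473890-85477273 on the plus strand, Fosb (ENSMUSG00000003545) at chr7:19302696-19310051 on the minus strand, Junb (ENSMUSG00000052837) at chr8:84974484-84978718 on the minus strand and Nr4a1 (ENSMUSG00000023034) at chr15:101254269-101274795 on the plus strand. The 250 bases before the RefSeq start of these 4 genes are shown 5′ to 3′ on the strand of the gene, because they are the 4 listed genes with the highest correlation between the hemispheres over mice. The windows are chr12:85473640-85473889 (Fos, plus), chr7:19310046-19310295 (Fosb, minus), chr8:84978749-84978998 (Junb, minus) and chr15:101266596-101266845 (Nr4a1, plus; inside the annotated span of that gene). Capitals mark the half-site of the cyclic AMP response element (TGACG, or CGTCA on the other strand), a TATA box (TATAAA) and the EGR motif (GCGNGGGCG, either strand).
Fos: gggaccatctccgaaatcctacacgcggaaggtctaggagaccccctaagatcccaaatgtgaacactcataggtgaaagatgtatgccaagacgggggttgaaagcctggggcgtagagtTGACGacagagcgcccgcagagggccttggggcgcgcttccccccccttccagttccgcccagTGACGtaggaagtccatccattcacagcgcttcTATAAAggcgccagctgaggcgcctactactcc
Fosb: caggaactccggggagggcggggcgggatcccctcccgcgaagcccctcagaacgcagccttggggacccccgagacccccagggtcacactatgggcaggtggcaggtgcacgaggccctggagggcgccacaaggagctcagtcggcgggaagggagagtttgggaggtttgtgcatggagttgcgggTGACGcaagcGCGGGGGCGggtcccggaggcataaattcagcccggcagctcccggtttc
Junb: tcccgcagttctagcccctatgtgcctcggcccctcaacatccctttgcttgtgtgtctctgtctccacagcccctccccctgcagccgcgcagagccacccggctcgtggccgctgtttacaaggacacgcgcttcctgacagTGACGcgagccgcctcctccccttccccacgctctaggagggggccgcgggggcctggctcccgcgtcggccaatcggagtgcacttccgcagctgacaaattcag
Nr4a1: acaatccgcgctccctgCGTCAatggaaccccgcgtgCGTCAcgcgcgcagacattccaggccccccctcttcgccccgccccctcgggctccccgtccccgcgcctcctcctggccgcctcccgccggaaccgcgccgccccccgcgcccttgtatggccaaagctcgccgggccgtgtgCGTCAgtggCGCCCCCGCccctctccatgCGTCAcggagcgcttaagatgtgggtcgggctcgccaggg

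RefSeq windows of 8 of the 10 genes were searched. For the listed genes, windows on chromosome 18, which holds Egr1, were left out, and no window was matched for Ier2. The counts below do not cover these genes. The half-site TGACG, which is the start of the full element TGACGTCA, was in 5 of the 8 windows: 4 times in Nr4a1, 2 times in Fos and 1 time each in Fosb, Junb and Atf3. It was in 17.8% of 32851 RefSeq windows of this length. The EGR motif was in 3 of the 8 (Fosb, Fosl2 and Nr4a1) and in 4.70% of all windows, and TATAAA was in 1 (Fos) and in 12.4% of all windows. The full element TGACGTCA (1.55% of all windows), the AP-1 motif TGANTCA (6.75%) and the CArG box of SRF (1.47%) were in none of the 8. A match is a run of letters and not a shown binding site. The Jund window (chr8:70697489-70697738) ends well before the annotated Jund start at 70698949, so it may not hold the promoter of that transcript. The windows of Atf3 (chr1:191183334-191183583) and Fosl2 (chr5:32136222-32136471) lie inside the annotated spans of these genes, as that of Nr4a1 does. Bases farther than 250 from a RefSeq start were not searched.

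Fos, the inducible core of AP-1, ranged from 17.6 to 453 TPM over the 19 ipsilateral libraries and from 17.7 to 831 TPM over the 18 contralateral ones. The ipsilateral sham libraries had 283 (mouse 8_15), 239 (8_16), 41.1 (9_9), 24.0 (9_10) and 363 TPM (9_11). The PTE+ libraries had 17.6 (8_10), 23.7 (9_17), 24.9 (9_18) and 42.7 TPM (9_19). Sham mice 8_15, 8_16 and 9_11 were thus far above every PTE+ mouse, and 9_9 and 9_10 lay within the PTE+ range. The 10 PTE- libraries ran from 32.7 to 453 TPM with a median of 86.7 TPM.

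The contralateral Fos levels were 202, 228, 37.1, 20.4 and 455 TPM in the same order of sham mice. They were 47.6 (8_10), 94.2 (8_17), 26.2 (9_17) and 21.3 TPM (9_18) in PTE+ mice, and 17.7 to 831 TPM with a median of 64.5 TPM in the 9 PTE- mice. The same 3 sham mice were high on both sides, and the groups overlapped.

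**Figure D1:**
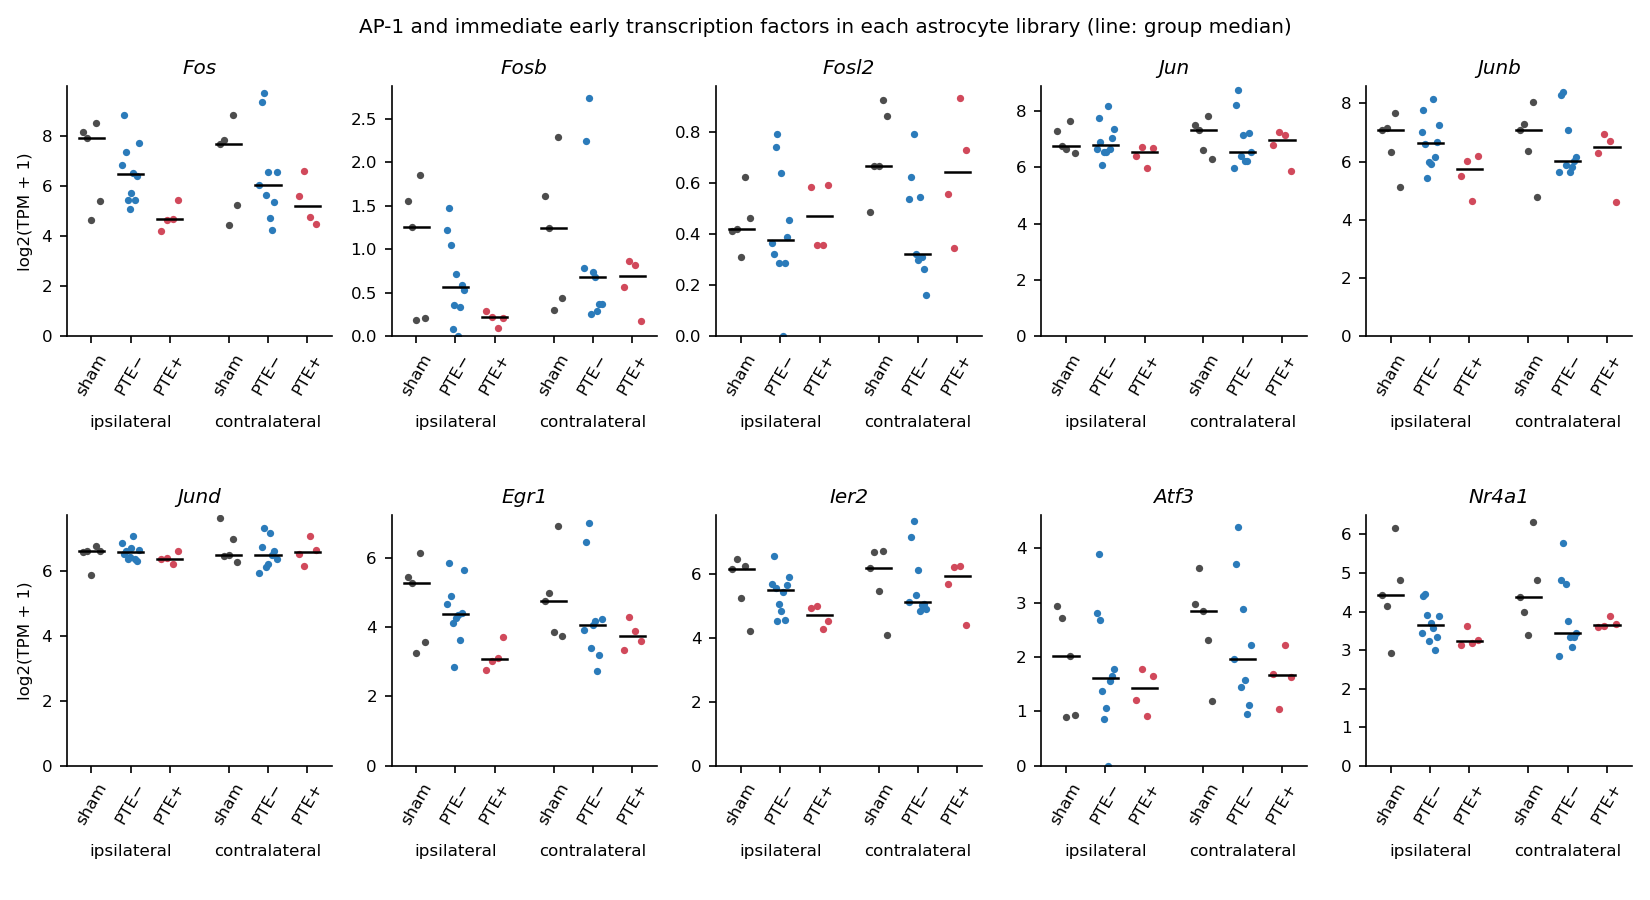
Level of each of the 10 genes (log2(TPM + 1), 1 panel a gene) in each library, by hemisphere and group (sham, PTE-, PTE+), with 1 point a library and a line at the group median. The 4 ipsilateral PTE+ values of Fos correspond to 17.6 to 42.7 TPM, while sham mice 8_15, 8_16 and 9_11 lie at 239 TPM or more and 9_9 and 9_10 at 41.1 TPM or less.

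The other Fos proteins were scarce. Fosb, a Fos relative that also pairs with Jun, reached at most 2.62 TPM ipsilaterally and 5.69 TPM contralaterally. Its ipsilateral sham values were 1.95, 1.39, 0.16, 0.14 and 2.62 TPM for mice 8_15, 8_16, 9_9, 9_10 and 9_11, and its PTE+ values were 0.22, 0.17, 0.07 and 0.16 TPM. The sham mice high in Fos were thus the ones high in Fosb. Fosl2 was under 1 TPM in all 37 libraries. Neither gene passed the filter on low values (a group mean above 5 TPM) in any comparison, so they entered no limma fit with this filter. Atf3 passed it in no ipsilateral comparison between groups.

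The Jun partners were present at high level throughout. Jun (ENSMUSG00000052684, chr4:95049034-95052222, minus strand) ranged from 57.6 to 424 TPM and Jund (ENSMUSG00000071076, chr8:70698949-70700616, plus strand) from 57.7 to 197 TPM over all libraries. The lowest Jund value, in ipsilateral sham mouse 9_10, stood apart from the other ipsilateral sham values of 94.5 TPM and above. Both are overlapped by an antisense gene, and Junb by Prdx2 on the other strand; the library kit keeps no strand, so reads of these genes could be split wrongly. Junb, the Jun protein that is itself early induced, had 134, 142, 33.9, 79.3 and 203 TPM in ipsilateral sham mice 8_15, 8_16, 9_9, 9_10 and 9_11, and 43.9, 63.3, 23.9 and 72.1 TPM in PTE+ mice 8_10, 9_17, 9_18 and 9_19. Only sham mouse 9_9 lay within the PTE+ range.

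Egr1 (ENSMUSG00000038418, chr18:34859823-34864984, plus strand), a zinc finger factor induced through SRF, had 42.9, 38.0, 10.8, 8.57 and 69.7 TPM in the same order of ipsilateral sham mice. Its PTE+ values were 5.78, 7.18, 7.59 and 12.1 TPM, so that 3 of the 4 were below every sham value. Ier2 (ENSMUSG00000053560, chr8:84661331-84662852, minus strand), a small nuclear early response protein, had 70.5, 88.9, 17.9, 37.4 and 75.7 TPM in sham mice and 29.9, 31.3, 18.5 and 22.0 TPM in PTE+ mice. The PTE+ values of Ier2 fell between the lowest and the next lowest sham value. Nr4a1, an orphan nuclear receptor that is induced through CREB, had 20.6, 16.7, 27.0, 6.6 and 70.3 TPM in sham mice and 7.75, 11.4, 8.15 and 8.57 TPM in PTE+ mice. Sham mouse 9_10 was below every PTE+ value and the other sham mice were above. Atf3 (ENSMUSG00000026628, chr1:191170296-191218039, minus strand), a stress-induced factor of the ATF family, ranged from 0.86 to 6.70 TPM in ipsilateral sham mice and from 0.89 to 2.42 TPM in PTE+ mice. Its highest level was 20.03 TPM, in the contralateral library of PTE- mouse 8_14.

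The comparison of PTE+ with sham asked how mice that developed seizures differed from uninjured ones. In the ipsilateral cortex all 7 listed genes that passed the filter had a fold change below 0, and 5 met the thresholds of a call for lower (unadjusted p under 0.05 and a fold of at least 1.2, limma on log2(TPM + 1)). Over the table, 39 of 10447 genes did, or 0.373%. The PTE+ libraries are those that drew attention to Fos, so nothing is read from the count or from its distance to that share. The log2 fold change was -2.17 for Fos (SE 0.72), -1.59 for Egr1 (SE 0.53) and -1.19 for Nr4a1 (SE 0.48). It was -1.09 for Junb (SE 0.46) and -0.99 for Ier2 (SE 0.40). The 2 genes short of the thresholds were Jun at -0.52 (SE 0.24) and the steady partner Jund at -0.10 (SE 0.18). The median of the 7 was -1.09, against 0.09 over all genes tested. Over all genes tested, 124 were called higher and 39 lower, and with each library centred on its median 101 and 97.

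The count depended on the fit and on single mice. By limma, 0 genes of the table reached a Benjamini-Hochberg adjusted p under 0.05, with 163 at an unadjusted p under 0.05. By the exact permutation test of libraries, 0 of 10 listed genes were under 0.05. That test was run on the listed genes only, and nothing is read from its count either. With both hemispheres in 1 fit and the mouse as replicate block, 3 of the 5 met the thresholds (Fos, Egr1 and Nr4a1), where 18 of 10447 genes did so for lower. Fos and Egr1 met them whichever 1 mouse was left out, while the count ran from 2 (without PTE+ mouse 9_18) to 6 (without PTE+ mouse 9_17 or sham mouse 9_10), and was 3 without PTE+ mouse 8_10 or sham mouse 8_15 or 9_11. The PTE+ and sham values of every listed gene overlapped. How often they overlap over all genes is not given here, so nothing is read from this. Within mice whose names start with 9 (3 PTE+ and 3 sham), the difference was -1.26 for Fos, -1.04 for Egr1 and -1.27 for Nr4a1, and with names starting with 8 (1 and 2 mice) it was -3.81, -2.61 and -1.16; what the prefix stands for was not given in the sources used here.

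**Figure D2:**
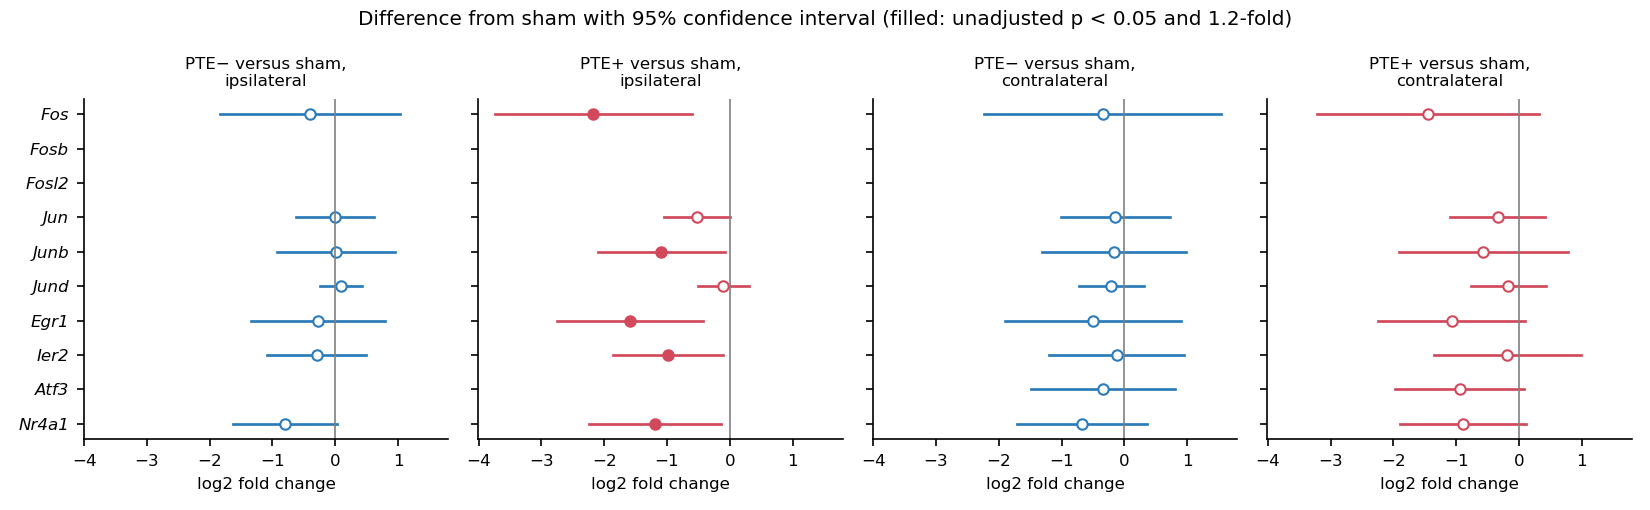
Log2 fold change (log2(TPM + 1) scale) of each listed gene that passed the filter in PTE- and PTE+ against sham, in each hemisphere, with 95% confidence intervals from limma. The lowest value is that of Fos in ipsilateral PTE+ mice (-2.17). These libraries drew attention to the genes, and the contralateral PTE+ libraries come in part from the same mice. The PTE+ intervals are therefore not read as tests.

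In the contralateral cortex of PTE+ mice, 0 of 8 listed genes were called against sham, where 210 of 10640 genes, or 1.97%, were called in either direction. By limma, no listed gene had an unadjusted p under 0.05 there, and by the exact permutation test 0 of 10 did. Of these 4 PTE+ mice, 3 also gave ipsilateral libraries, and the sides of a mouse had a like Fos level. The comparison is therefore not independent of the choice of genes, and it is described only. The log2 fold change was -1.45 for Fos (-3.22 to 0.32), -1.07 for Egr1 (-2.24 to 0.11), -0.94 for Atf3 (-1.97 to 0.08) and -0.89 for Nr4a1 (-1.90 to 0.12), all with wide intervals. Fos stood below the sham median in 4 of 4 mice. Within prefix 8 the Fos difference was -1.66 (2 and 2 mice) and within prefix 9 it was -1.55 (2 and 3 mice). The count was 4 without sham mouse 9_9 and 3 without sham mouse 9_10, the sham mice with the lowest Fos, and 1 without PTE+ mouse 9_17. Within the mice with both hemispheres, the mean of ipsilateral minus contralateral Fos was -0.43 in 3 PTE+ mice and 0.12 in 5 sham mice, a contrast of -0.55. It rests on libraries that drew attention to Fos and on few mice, so it is described only.

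Since the hemispheres of a mouse are not independent samples, the mean of each mouse was also compared. All 10 genes were lower in PTE+ than in sham mice on this measure (5 and 5 mice): the difference in log2(TPM + 1) was -1.62 for Fos, -1.22 for Egr1 and -1.05 for Nr4a1. Over the 5 mice of each group the mean of Fos ran from 4.53 to 8.67 in sham and from 4.59 to 6.57 in PTE+ mice, so that the groups overlapped. These means rest in part on the libraries that chose the genes, and no test is given.

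The comparison of PTE- with sham asked what the injury left in mice without seizures. Ipsilaterally 0 of 7 listed genes were called, against 161 of 10485 genes (1.54%), also when the library of mouse 9_14 was left out. The log2 fold change was -0.39 for Fos (-1.83 to 1.04) and -0.80 for Nr4a1 (-1.63 to 0.04), and Jun, Junb and Jund were within 0.10 of 0 (-0.14, -0.14 and 0.04 without mouse 9_14). The signs rested on sham mouse 9_11: without it, 5 of 7 genes were above 0, where 2 of 7 were with it. Nr4a1 was called lower with the mouse as replicate block, a fit that called 101 of 10485 genes lower. It was also called lower without PTE- mouse 8_13 or 8_14, or without sham mouse 9_10. Nr4a1 had 7.03 to 20.9 TPM with a median of 11.5 TPM in the 10 PTE- libraries, inside the sham range. Contralaterally 0 of 8 were called, against 397 of 10564 genes (3.76%), with -0.35 for Fos (-2.23 to 1.54). All 8 were below 0, but without sham mouse 9_11 5 of the 8 were above 0. Fosl2, below the filter, was the 1 of 10 genes with an exact permutation p under 0.05 there: 0.12 to 0.73 TPM in PTE- against 0.40 to 0.90 TPM in sham mice (difference -0.29, p = 0.0230). On mouse means 0 of 10 were under 0.05 by the exact test, and the lowest p was 0.0999.

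PTE+ and PTE- mice had the same injury, and the contrast between them was part of what chose the genes, so it is described only. Ipsilaterally all 7 genes that passed the filter were below 0, and 4 met the thresholds for lower (Fos -1.78, Egr1 -1.31, Junb -1.11 and Ier2 -0.70), where 26 of 10473 genes, or 0.248%, did. As the genes were chosen for this contrast, nothing is read from that count or share. Jun had -0.52, Nr4a1 -0.39 and Jund -0.20. The count was 4 without PTE- mouse 9_14 (Fos -1.78, Junb -0.95), 2 with the mouse as replicate block (Fos and Egr1) and 2 without PTE+ mouse 8_10 or 9_18. Contralaterally 0 of 8 met the thresholds, where 291 of 10423 genes, or 2.79%, did in either direction, and the log2 fold change of Fos was -1.10 (SE 0.86). There 7 of 8 genes were below 0, but without PTE- mouse 8_14 4 of 7 were above 0, and without PTE+ mouse 9_18 4 of 8. In absolute terms the ipsilateral PTE+ means were 27.2 ± 10.8 TPM for Fos (SD, n = 4) and 8.17 ± 2.75 TPM for Egr1, against 128 ± 127 TPM and 25.1 ± 16.04 TPM in PTE- mice (SD, n = 10).

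The spread among mice of 1 group was wide. Pooled over the 6 groups, the within-group SD of log2(TPM + 1) was 1.51 for Fos, and 0.417% of 10065 genes above 5 TPM in both tables had one as large. It was 1.10 for Egr1, 0.998 for Junb, 0.86 for Ier2, 0.80 for Nr4a1 and 0.69 for Jun, but 0.37 for Jund, near the median of 0.40 over all genes. The inducible genes thus varied among mice of like treatment, and the constitutive partner did not vary more than most genes.

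Mice high in Fos on one side tended to be high on the other, more closely in sham than in PTE- mice. Among mice with both hemispheres, Fos averaged over both sides (log2(TPM + 1)) differed 17.6-fold between the highest and the lowest of the 5 sham mice, 19.1-fold among 9 PTE- mice and 1.25-fold among 3 PTE+ mice. The 2 PTE+ mice with 1 hemisphere are not among these 3, and over all 5 the range is wider (4.59 to 6.57 in log2(TPM + 1)). Between the hemispheres of a mouse the median difference was 1.44-fold (of TPM + 1), and 10 of 17 mice were within 2-fold. The mice beyond 2-fold were PTE- mice 8_14, 9_12, 9_13, 9_15, 9_16 and 9_20 and PTE+ mouse 8_10, and no sham mouse was. The widest gap was in PTE- mouse 8_14, with 164 TPM ipsilaterally and 831 TPM contralaterally, a 5.05-fold difference of TPM + 1. PTE- mouse 8_13 had 453 and 652 TPM, and PTE- mouse 9_15 had 42.4 and 17.7 TPM. PTE- mouse 9_12, the lowest of its group ipsilaterally, had 32.7 and 91.7 TPM.

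**Figure D3:**
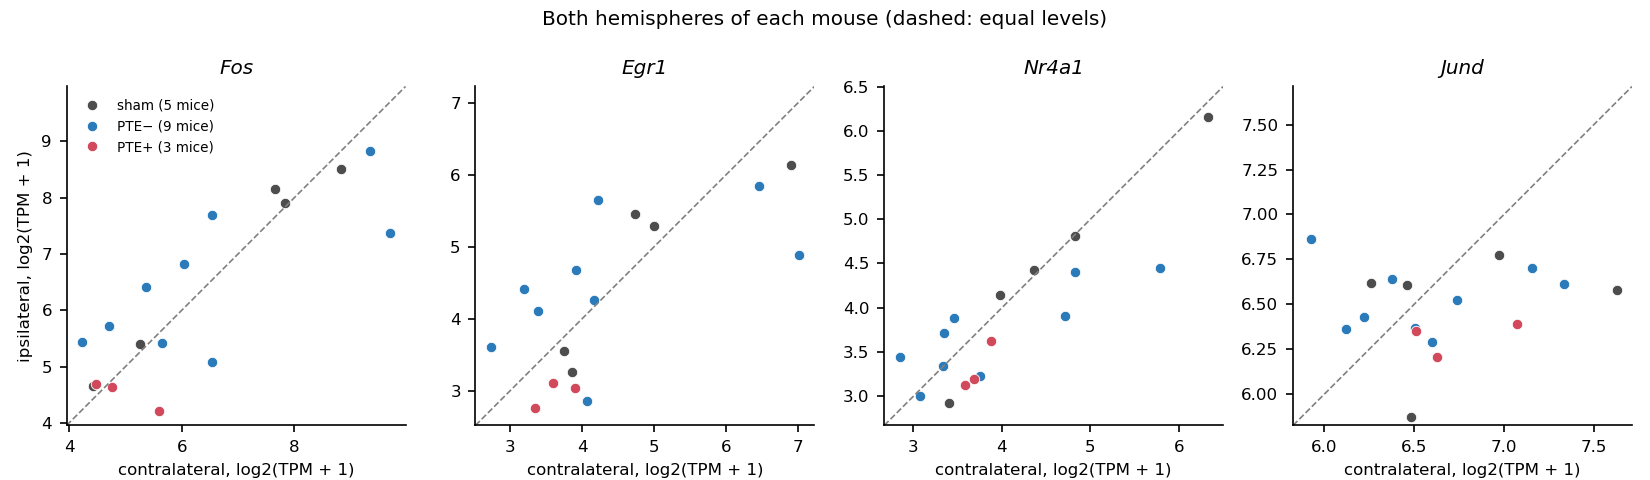
Ipsilateral against contralateral level (log2(TPM + 1)) of Fos, Egr1, Nr4a1 and Jund in the 17 mice with both hemispheres, coloured by group, with a dashed line of equal levels. Fos (r = 0.81) and Nr4a1 (0.85) follow the line over a wide range, while Jund (0.18) covers a narrow range and scatters across it.

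After each value was centred on its group and hemisphere, Pearson's r between hemispheres over the 17 mice was 0.81 for Fos (Spearman's rho 0.79), 0.85 for Nr4a1 (0.86), 0.80 for Fosb (0.92) and 0.70 for Junb (0.63). It was 0.68 for Ier2, 0.67 for Egr1, 0.63 for Jun, 0.60 for Atf3, 0.26 for Fosl2 and 0.18 for Jund. Over all 10065 genes the median was 0.49, the quartiles 0.31 and 0.63 and the 95th percentile 0.78. Genes with an r at least that of Fos made up 3.54%, at least that of Nr4a1 1.80% and at least that of Jund 86.0%. The hemispheres share the animal, and this likeness was part of what chose the genes, so no test is given. Without the 2 mice farthest from the median r was 0.71 for Fos and 0.77 for Nr4a1, and it was 0.80 and 0.81 for Fos within prefixes 8 (7 mice) and 9 (10 mice).

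In the comparison of the hemispheres, the median log2 fold change (ipsilateral against contralateral) of the listed genes was -0.12 in sham, 0.02 in PTE- and -0.57 in PTE+ mice, against -0.09, -0.05 and 0.03 over all genes tested. In sham mice 0 of 8 listed genes were called, against 126 of 10601 genes (1.19%), and in PTE- mice 0 of 8, against 206 of 10374 (1.99%), the latter also without mouse 9_14. These fits took the libraries as unpaired. With the mouse as replicate block, which pairs the sides, 0 of 8 were called in PTE- mice, where that fit called 609 of 10374 genes. In sham mice the paired fit called 1 of 8, and 732 of 10601 genes. The listed gene called there was Atf3, which had a lower ipsilateral value in 5 of 5 mice (mean difference -0.69, exact sign-flip permutation p = 0.0625, the lowest possible with 5 mice). In PTE+ mice all 7 genes that passed the filter were below 0, and 2 met the thresholds for lower, where 80 of 10485 genes (0.763%) did: Egr1 at -0.63 (SE 0.27) and Ier2 at -0.95 (SE 0.37; 4 libraries a side). The paired fit over 3 mice (replicate block) gave 4, namely Junb, Jund, Egr1 and Ier2, where it called 403 of 10485 genes and 300 of these lower. Ier2 had 29.9 and 50.7 TPM (ipsilateral and contralateral) in mouse 8_10, 31.3 and 75.8 TPM in 9_17 and 18.5 and 20.3 TPM in 9_18. All 3 mice were lower on the injured side. Leaving out mouse 8_10, 8_17 or 9_17 gave 0, leaving out 9_19 gave 1, and leaving out 9_18 gave 3 (Jun, Junb and Ier2).

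**Figure D4:**
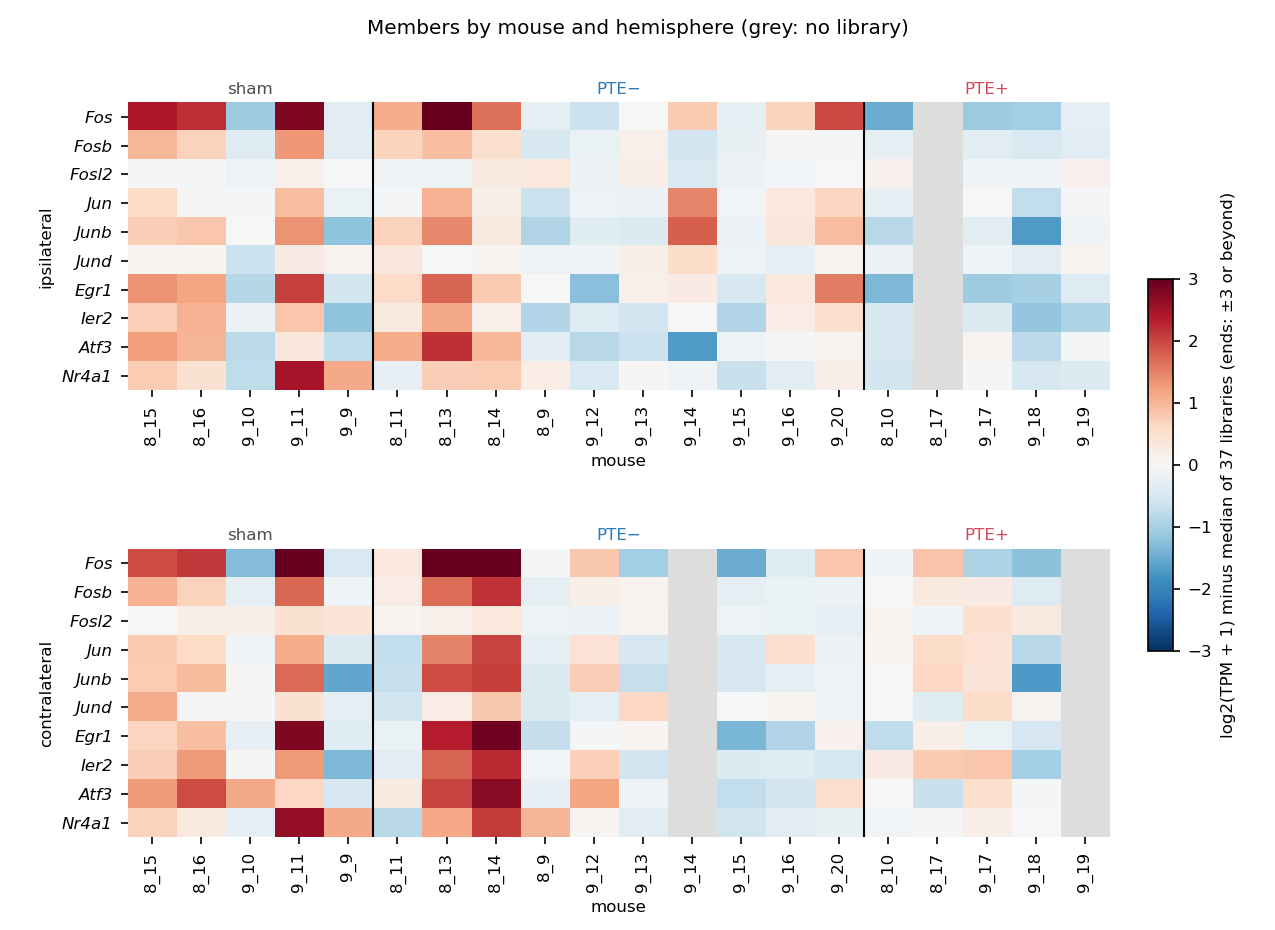
Heat map of the 10 genes in the 37 libraries, with 1 column a mouse and 1 panel a hemisphere, in log2(TPM + 1) minus the median of the gene over the 37 libraries (grey where a mouse gave no library). The high columns of sham mouse 9_11 and PTE- mice 8_13 and 8_14 run through most of the inducible genes, and the rows of Jund and Fosl2 are paler.

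The early genes varied together across libraries. Within groups, Fos and Egr1 had r = 0.96 over 19 ipsilateral and 0.91 over 18 contralateral libraries, and Fos and Fosb 0.83 and 0.92. Junb and Ier2 had 0.82 and 0.98. Fos and Jund had 0.50 and 0.33, and Fos and Fosl2 0.09 and 0.26. These correlations are across libraries that share mice, and they are given as a description.

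The 8 genes most like Fos outside the list, ranked by the lower of the group-centred r values of the hemispheres among the 10065 genes, were Hspa1b (0.86), Hspa1a (0.84), Dusp1 (0.81), Zfp36 (0.72), Cebpb (0.72), Ociad1 (0.72), Gtf2b (0.66) and Dnajb1 (0.65). Hspa1a and Hspa1b encode near-identical inducible Hsp70 chaperones, whose reads can be split wrongly, and Dnajb1 their co-chaperone. Dusp1 is a phosphatase that shuts off MAP kinases and Zfp36 a protein that speeds the decay of early mRNAs. Over all genes the median of this measure was -0.04 and the 95th percentile 0.30. Without the 2 libraries farthest from the median, Hspa1b had 0.80 ipsilaterally and 0.79 contralaterally, and Dnajb1 0.66 and 0.41. Without PTE- mouse 9_14 the ipsilateral r was 0.88 for Hspa1b and 0.88 for Cebpb (0.72 with it), and 0.79 for Jun (0.64 with it). Among the listed genes Egr1 ranked 2 (after Fos itself), Ier2 5, Junb 7, Jun 13, Nr4a1 15 and Jund 374.

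**Figure D5:**
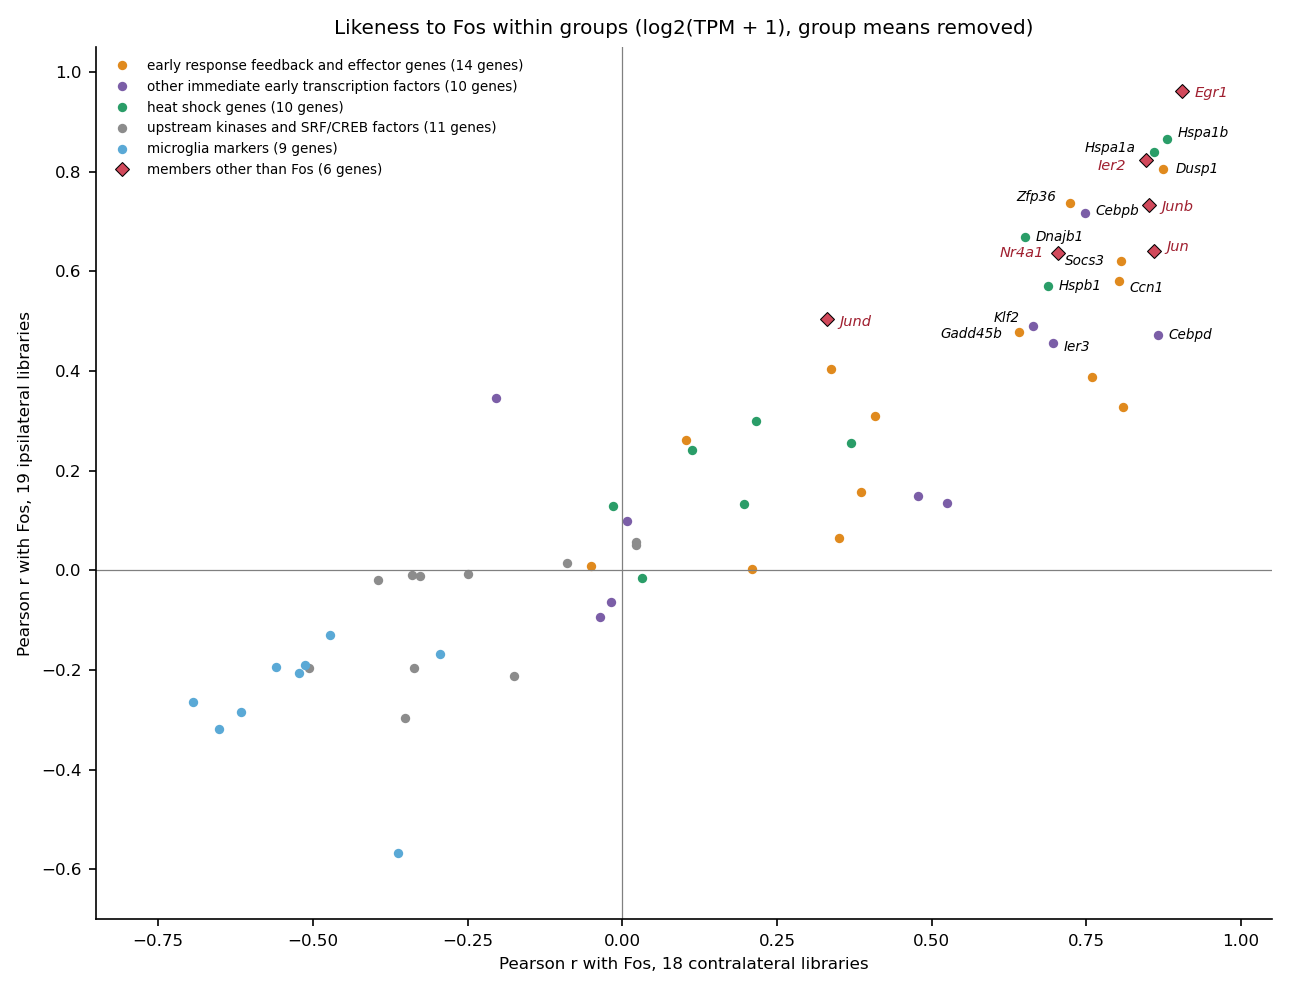
Group-centred Pearson r with Fos over the 18 contralateral (horizontal) and 19 ipsilateral (vertical) libraries, for the listed genes (diamonds) and for genes of 4 wider lists and microglial markers (points). Egr1 (0.91 and 0.96), Hspa1b (0.88 and 0.86) and Dusp1 (0.87 and 0.81) lie at the upper right, and upstream kinases and microglial markers lie mostly at or below 0.

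Hspa1a had 3.98 to 105 TPM in ipsilateral sham libraries with a median of 29.9 TPM, and 4.09 to 5.42 TPM in the PTE+ ones. Of 10 heat shock genes tested, Hspa1a and Hspa1b were called lower in ipsilateral PTE+ mice against sham (log2 fold change -1.98 and -1.99), and the other 8 were not called. Over all genes tested 0.373% were called lower. These libraries drew attention to Fos, and the pair is among the genes most like Fos, so nothing is read from the count. The median of the 10 was 0.08, close to the 0.09 over all genes. The abundant chaperones Hspa8, Hsp90aa1 and Dnaja1 had group means of 752 to 991 TPM, 298 to 394 TPM and 133 to 159 TPM. Their group means thus lay closer together than those of the inducible pair.

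Wider lists around the pathway were set beside the members. The ipsilateral PTE+ libraries drew attention to Fos, so calls that rest on them are described only. In ipsilateral PTE+ mice against sham, 39 of 10447 genes, or 0.373%, were called lower and 124 higher. Of 16 tested feedback and effector genes, 2 were called lower in ipsilateral PTE+ mice against sham: Dusp1 (mean 83.9 against 165 TPM, log2 fold change -0.84) and the antiproliferative Btg2 (22.98 against 39.998 TPM, -0.74). The median was -0.43, against 0.09 over all genes. The most abundant of the list, Nfkbia, the inhibitor of NF-κB, had group means of 149 to 186 TPM, and the secreted Ccn1 97.8 to 150 TPM. Of 10 other immediate early factors, Klf2 was called lower (14.5 against 28.8 TPM, -0.89) and Myc, a growth regulator, higher (13.4 against 5.90 TPM, 1.03), with a median of -0.12. The fold change of Myc thus had the other sign. The abundant Klf6, Ier3 and Cebpb had group means of 48.0 to 66.3 TPM, 25.7 to 58.5 TPM and 21.4 to 35.2 TPM.

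No AP-1 partner and no upstream kinase or SRF/CREB factor was called in any of the 9 comparisons. Over all genes the share called was at most 3.76%, in contralateral PTE- against sham. With so few genes on these lists, nothing is read from the lack of calls. AP-1 partners and related factors tested numbered 7 in ipsilateral PTE+ against sham (median 0.04), and upstream genes 11 (median 0.13). Atf4, Mafg and Atf7 had group means of 99.2 to 110.4 TPM, 41.2 to 52.4 TPM and 25.9 to 30.3 TPM, and the kinases Mapk3 and Mapk10 had 84.0 to 107 TPM and 35.96 to 41.6 TPM. The group means of these partners and kinases thus lay close together.

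In the other comparisons few genes of these lists were called, and the shares over all genes are those given above for each comparison. In ipsilateral PTE- mice against sham they were Myc (0.71) and the DNA damage response gene Gadd45b (0.55) higher and the kinase Sik1 (-0.76) lower. In contralateral PTE- mice the clock gene Per1 (-0.57) and the kinase Sgk1 (-0.50) were lower, and in contralateral PTE+ mice Cebpd (-0.50). Between hemispheres, ipsilateral values were lower for Klf6 in sham mice (-0.40) and, in PTE+ mice, for Klf2 (-1.10), Klf4 (-0.95), Dusp1 (-0.64) and the small heat shock gene Hspb1 (-0.56), while Gadd45b was higher (0.66). Hspa1a (-1.55) and Hspa1b (-1.53) were lower in ipsilateral PTE+ than PTE- mice. The adjusted p of limma was at least 0.961 for each of these.

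Summed markers of other cells had correlations of either sign with Fos. The group-centred r of the summed markers with Fos was -0.27 ipsilaterally and -0.57 contralaterally for microglia, -0.37 and -0.65 for oligodendrocytes, and 0.36 and 0.75 for mural cells (0.28 and 0.69 without the 2 farthest libraries). For neurons it was -0.13 and -0.25, and for endothelial cells 0.03 and 0.28. The summed endothelial markers had contralateral medians of 970 TPM in sham, 1064 TPM in PTE- and 1689 TPM in PTE+ libraries, with overlapping ranges. A sum is weighted to its abundant markers: Vtn had a median of 1155.5 TPM, and the 8 mural markers together 1478 TPM. Mbp had 1012 TPM, and the 10 oligodendrocyte markers 1784 TPM. Taken singly, 7 mural markers above the filter in both tables had a median of 0.17 for the lower r with Fos, and 8 oligodendrocyte markers -0.28. The summed mural markers had 1008 to 2670 TPM in ipsilateral sham libraries and 1400.5 to 1796 TPM in PTE+ libraries, and the summed oligodendrocyte markers 524 to 4481 TPM and 1192 to 2342 TPM. Their part in the levels of the early genes was not tested.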

How the data were processed

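RNA of bead-sorted cortical astrocytes was sequenced in 37 libraries. Per the labels and the study's methods, the authors made SMART-Seq v4 libraries (no strand kept), trimmed reads with Trim Galore 0.6.4, and used RSEM 1.2.28 with Bowtie2 2.4.1 on mm10. The deposited values used here are TPM, 1 table a hemisphere, which have the same sum in each library, so that a change in abundant genes moves all others. Read depth cannot be had from TPM, and the annotation release was not given in the sources used here; coordinates are from GENCODE release M21 (GRCm38), promoter windows from RefSeq on GRCm38.p6.

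Groups came from the sample labels. limma 3.58.1 (R 4.3.3) was fitted with a trend to log2(TPM + 1), 2 groups at a time within a hemisphere. Genes entered where their mean exceeded 5 TPM in 1 or both groups. The hemispheres of a group were compared in the same way, as unpaired libraries, with the mouse as replicate block as the paired alternative. Fold changes on this scale understate those of low genes. A call, after the study's thresholds, is an unadjusted p under 0.05 with a fold of at least 1.2, and Benjamini-Hochberg adjusted p-values are given beside it. Exact two-sided permutation tests over libraries, mice or signs within mice used Python 3.11.15 and numpy 2.4.6. Whether replicates are separate mice is given by the mouse names; these also pair the hemispheres, and deviations of 10065 genes from the group means correlated between hemispheres of a mouse with a median r of 0.43 (0.0078 to 0.70; above 0.1 in 16 of 17 mice), against -0.09 between mice of a group. The fits were checked on simulated data with known changes.

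The 10 genes, the wider gene lists and the marker lists were chosen with earlier results of these data known. Named are all 10 genes, genes of the wider lists called in any comparison or among the 3 most abundant of a list, and the 8 other genes most like Fos; 1 gene that this rule names is not reported here. Alternatives were another pseudocount (0.1), no filter or a filter at 1 TPM, quantile normalization, median centring, 1 fit of all 3 groups, the name prefix as covariate, array weights, other call rules, the mouse as replicate block and leaving out each mouse.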

Additional observations from a re-analysis of the deposited data

Results flagged for a closer look

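The Jund level of ipsilateral sham mouse 9_10 was 57.7 TPM (57.67) with the nearest other sham library at 94.5 TPM, a gap of 0.780 of the range of the 5 libraries. It was the 1 value to stand apart among 60 groups of 4 to 10 libraries examined, and chance flags about 1 in 20 such groups.

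The difference of Fosl2 between PTE- and sham mice differed between the hemispheres. The mean of ipsilateral minus contralateral log2(TPM + 1) was 0.05 in 9 PTE- mice and -0.28 in 5 sham mice, a contrast of 0.32 (two-sided exact permutation p = 0.00899 over 2002 splits, 1 of 20 such tests over the 10 genes, not adjusted). All 5 sham mice had the lower value ipsilaterally, and 5 of 9 PTE- mice did. The levels were under 1 TPM in all 37 libraries, and with libraries centred on their median the p was no longer under 0.05.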

How the results depend on the processing

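Of the fold changes of single genes recomputed under each alternative, which do not cover all 10 genes in every comparison, 2 reversed: Fos in PTE- against sham without sham mouse 9_11 became 0.0025 ipsilaterally (range without each mouse -0.96 to 0.0025) and 0.16 contralaterally (-0.94 to 0.16). More genes changed sign without that mouse: those above 0 went from 2 to 5 of 7 ipsilaterally and from 0 to 5 of 8 contralaterally. The count of listed genes called in ipsilateral PTE+ against sham (5) became 0 at an adjusted p under 0.05, 2 with no filter (Fos and Egr1), 3 with array weights, 3 with the mouse as replicate block, 7 with a filter at 1 TPM and 6 with quantile normalization or median centring; without each mouse it was 2 to 6. In ipsilateral PTE+ against PTE- (4) it became 0 at an adjusted p under 0.05 and 2 under the block, and 2 to 5 without each mouse. In ipsilateral PTE- against sham (0) it became 1, Nr4a1, under median centring, the fit of all 3 groups, array weights and the block, and 0 to 1 without each mouse. Contralaterally, PTE- against sham (0) became 1 with no filter (Fosl2), and PTE+ against sham (0) became 1 with the prefix covariate (Fos) and 3 with array weights (Egr1, Atf3 and Nr4a1), and 0 to 4 without each mouse. Between hemispheres, sham mice (0) became 1 with no filter (Fosl2) and 1 with the paired fit (Atf3), and PTE+ mice (2) became 0 at an adjusted p under 0.05, 4 with the paired fit, and 0 to 3 without each mouse. The replicate block changed the count in no other comparison. The cause of these changes was not tested, except that the adjusted threshold is stricter by construction. The alternatives of the exact tests were chosen after seeing the data. On mouse means of PTE- against sham, 0 of 10 genes were under 0.05. Fosl2 fell under 0.05 without PTE- mouse 8_14, and Nr4a1 without sham mouse 9_10. Those of PTE+ mice are not independent of the choice of genes and are not given. The within-mouse contrast of PTE- against sham gave 1 (Fosl2), 0 with median centring and 1 without each mouse. The correlation between hemispheres reversed for Fosl2 (-0.15) and Jund (-0.18) within prefix 8 and for Atf3 (-0.092) within prefix 9. Scaling also moved the median of all genes: in contralateral PTE- against sham it was -0.09, and 0.03 with median centring, where calls over the table went from 51 higher and 346 lower to 328 and 119. In ipsilateral PTE+ against PTE- the split went from 34 higher and 26 lower to 14 and 36, in contralateral PTE+ against PTE- from 203 and 88 to 148 and 213, and between sham hemispheres from 8 and 118 to 49 and 53. Depth is unknown, so counting error could not be set beside the low values of Fosb, Fosl2 and Atf3.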
